A study of Homo sapiens with 6 samples.

Results

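The vacuolar H+-ATPase (V-ATPase) genes were followed across RNA-seq libraries of the human embryonic kidney line HEK293, in which ZNF146 or ZNF507 had been disrupted. The group was defined by gene identity, although it was chosen for study with earlier results of these data known. It holds the subunits of the pump, its accessory proteins, its assembly factors and the rabconnectin-type regulators, 32 genes of the 57773 in the count table. All 32 were found in the table and 30 had enough counts to be tested. Cells had been transfected with Cas9 plasmids (PX459) that carried 4 target sequences for ZNF507 (sgZNF507), 4 for ZNF146 (sgZNF146) or no target sequence (EV, empty vector). Every group therefore received the plasmid, 36 h of puromycin selection and outgrowth to 2 weeks. The cells were transiently transfected populations and not clones, so that cells with an intact target may remain in them. Each group has 2 libraries, described as biological duplicates.

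Library totals ran from 22724439 to 28524025 counts. In the libraries labelled sgZNF507, ZNF507 was counted 1088 and 1411 times, against 1792 and 2087 times in EV, and its log2 fold change was -0.62 (SE 0.07, adjusted p = 0.00195 by the quasi-likelihood test of edgeR, corrected over 22010 genes after Benjamini and Hochberg). In the libraries labelled sgZNF146, the log2 fold change of ZNF146 was -0.13 (SE 0.08, adjusted p = 1.0 in the same test), and in the libraries labelled sgZNF507 it was -0.21 (SE 0.08, adjusted p = 1.0 in the same test). The RNA level of ZNF146 therefore does not check the sgZNF146 labels, and it does not report on small insertions or deletions in the coding sequence. The paper reports both proteins as essentially undetectable on western blots of the targeted cells. It also reports frequent insertions or deletions at the target sites among the RNA-seq reads, not seen in control cells. Of 7 markers listed for HEK293 cells, 5 were matched to the table and had counts in every library. Among them were PAX2 (139 to 191 counts), NEFM (1669 to 2143 counts) and, lowest of the list, EPCAM (31 to 47 counts). PTPRC, CD68, HBB, ALB and MYH7, markers of leukocytes, macrophages, erythroid cells, hepatocytes and muscle, had 0 to 10 counts in each library. The neuroendocrine marker INSM1 (108 to 208 counts) and the astrocyte marker GFAP (55 to 79 counts) were detected. In bulk RNA, fewer cells that express a gene and less RNA of it per cell cannot be told apart.

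The V-ATPase is a rotary proton pump that acidifies lysosomes, endosomes, the Golgi and secretory vesicles. The soluble V1 sector hydrolyses ATP in a ring of A and B subunits and turns a central shaft of D and F, while peripheral stalks of E and G, joined to C and H, hold the ring still. The membrane-embedded V0 sector carries protons between the a subunit and a rotating ring of c-type subunits, which subunit d couples to the shaft. V0 is put together in the endoplasmic reticulum with the help of VMA21, TMEM199 and CCDC115, homologues of yeast Vma21p, Vma12p and Vma22p, and V1 and V0 separate and rejoin under the control of DMXL1, DMXL2, WDR7 and ROGDI, relatives of the yeast RAVE complex and of rabconnectin-3. Several subunits have paralogues with restricted tissue use, such as those of kidney intercalated cells, which secrete acid, and of osteoclasts, which dissolve bone mineral.

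In EV cells, a shaft subunit of V1 and subunits of V0 had the highest levels per length. The paralogues of subunits B, C, E, G and d with restricted tissue use each held under 10% of the counts per kb of their family. Levels are given as CPM, counts normalised for library size with TMM factors, and, between genes, per kb of exon. ATP6V1F, a shaft subunit with a short transcript, had the highest level per length, 127 ± 11.0 CPM per kb (SD, n = 2). It was followed by ATP6V0B, the c'' subunit of the rotor ring, at 33.6 ± 1.39 CPM per kb (SD, n = 2), and by ATP6V0E2, an e subunit, at 25.1 ± 1.81 CPM per kb (SD, n = 2). The accessory subunit ATP6AP1 (21.6 ± 0.226 CPM per kb, SD, n = 2), ATP6V0E1 (19.2 ± 1.81) and ATP6V1E1 (17.3 ± 0.0229) came next. Down to ATP6V1E1, the library values of neighbours in this order did not overlap, but 2 libraries against 2 allow no exact test to pass. ATP6V1G1 (15.3 ± 0.449), VMA21 (14.9 ± 0.588) and ATP6V0C (14.7 ± 0.328) overlapped each other in turn. The catalytic subunit ATP6V1A had 13.8 ± 0.718 CPM per kb (SD, n = 2), above ATP6V0D1 with 12.9 ± 0.133, ATP6V0A1 with 12.1 ± 0.0710 and its ring partner ATP6V1B2 with 9.96 ± 0.485. The order of genes rests on the union of exons as the length, and other lengths change parts of it. By the longest transcript ATP6V0D1 (3390 bp, 105 CPM in EV) would stand above ATP6V1A (4575 bp, 87.1 CPM in EV). The other assembly factors were lower than VMA21, TMEM199 at 5.79 ± 0.344 and CCDC115 at 3.71 ± 0.202 CPM per kb (SD, n = 2). The 4 rabconnectin-type genes lay together, from 4.43 ± 0.152 CPM per kb (SD, n = 2) for WDR7 to 6.24 ± 0.288 for DMXL1.

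**Figure D1:**
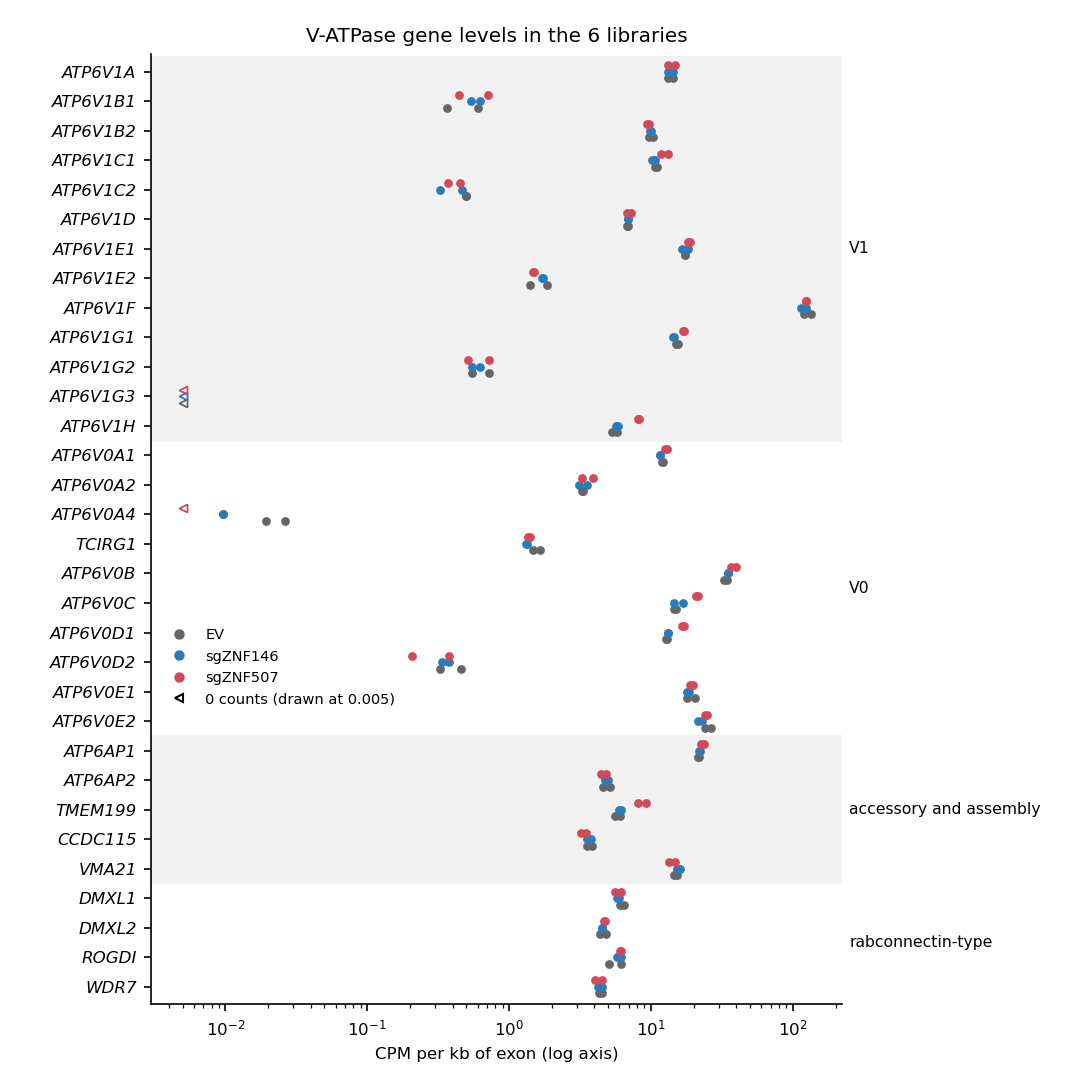
Levels of the 32 V-ATPase genes in the 6 libraries, as CPM per kb of exon on a log axis, with 1 point per library coloured by group. ATP6V1F stands highest at 127 CPM per kb in EV and ATP6V1G3 has 0 counts in every library.

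Within the paralogue families, a single gene held over 90% of the counts per kb of exon of subunits B, C, E, G and d in EV. By counts per kb of exon, ATP6V1B2 held 95.4% ± 1.74 (SD, n = 2) of the B family, ATP6V1C1 95.6% ± 0.124 of C, ATP6V1E1 91.4% ± 1.49 of E, ATP6V1G1 96.0% ± 0.848 of G and ATP6V0D1 97.1% ± 0.629 of d. The a subunit, which forms the proton half-channels and differs between organelles, was shared among ATP6V0A1 (71.2% ± 0.840), ATP6V0A2 (19.5% ± 0.136) and TCIRG1, the a3 subunit of lysosomes and the osteoclast ruffled border (9.21% ± 0.677). The e family was split between ATP6V0E2, known for its abundance in brain, with 56.8% ± 0.548 (SD, n = 2) and ATP6V0E1 with 43.2% ± 0.548, and the DMXL pair between DMXL1 with 57.7% ± 0.577 and DMXL2 with 42.3% ± 0.577. The order within families is the same when the longest transcript is used as the length, although the share of ATP6V0A1 is then 62.1% and that of ATP6V0E2 65.3%. Pseudogenes and overlapping genes bear on some of these shares, and 63.1% of the exon bases of ATP6V1B1 are also exon of VAX2 on the same strand. VAX2 had 112 and 198 counts in EV, against 24 and 44 for ATP6V1B1. Reads in shared exons may be left unassigned. The level of ATP6V1B1 may therefore be understated, and the share of ATP6V1B2 overstated, by an unknown amount.

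**Figure D2:**
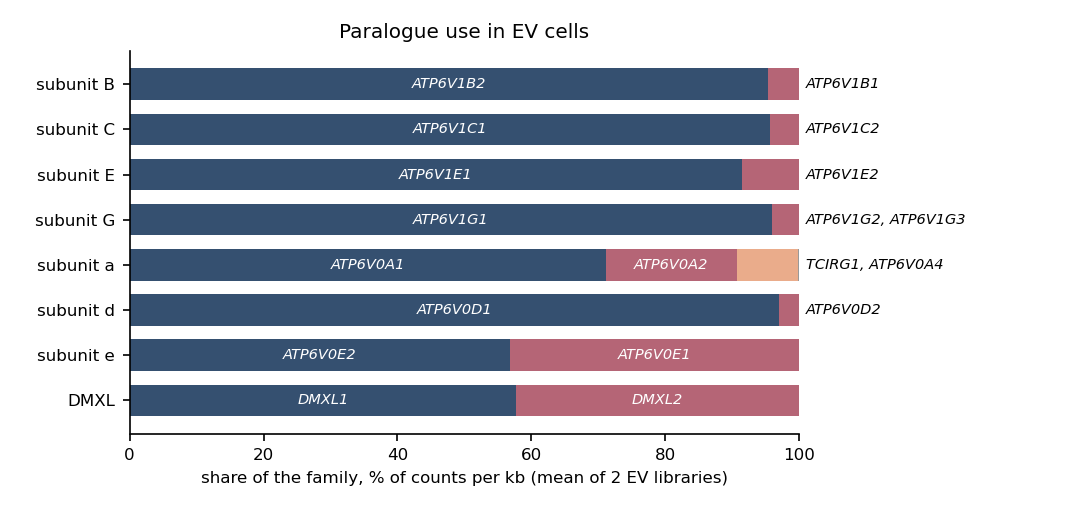
Share of each paralogue within its subunit family in EV cells, in percent of the counts per kb of exon, as the mean of 2 libraries. By this measure subunits B, C, E, G and d come mostly from a single gene, whereas a, e and DMXL are divided.

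Among the paralogues of kidney intercalated cells and osteoclasts, ATP6V1G3 and ATP6V0A4 were at or under the limit of detection, and ATP6V1B1 and ATP6V0D2 were detected at low counts. ATP6V1G3, the G subunit of intercalated cells, had 0 counts in all 6 libraries, which allows up to 3 counts, or 0.103 to 0.130 CPM depending on the library, for counting error only. ATP6V0A4, the a subunit of intercalated cells, had 2 and 3 counts in EV, 1 and 1 in sgZNF146 and 0 and 0 in sgZNF507, all at or under that limit, so that no fold change is given. ATP6V1B1, the B subunit of proton-secreting cells, had 24 and 44 counts in EV, 42 and 36 in sgZNF146 and 27 and 55 in sgZNF507, and its groups overlapped. ATP6V0D2, the d subunit of osteoclasts and kidney, had 24 and 37 counts in EV, 25 and 28 in sgZNF146 and 14 and 32 in sgZNF507, which also overlapped. Among the 7 intercalated cell markers, FOXI1, the factor that defines these cells, was at 0 in all libraries, and the list summed to 95 to 113 counts per library. Among the 7 osteoclast markers, OCSTAMP and DCSTAMP were at 0 in all libraries, ACP5 had 0 to 6 counts, and the list summed to 49 to 93 counts, of which CTSK, the collagen-degrading protease cathepsin K, gave 34 to 72.

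The comparison of sgZNF507 with EV sets cells given target sequences for ZNF507 beside cells given none, so loss of ZNF507 and cutting as such cannot be told apart. ATP6V1H, ATP6V0D1 and TMEM199 were higher in sgZNF507, by 1.31 to 1.5 times, and no V-ATPase gene was called lower. They are a stalk subunit of V1, a rotor subunit of V0 and an assembly factor of V0. They are 3 of the 30 tested members, beside 0.182% of all 22010 genes called in this comparison, of which 25 were higher and 15 lower. With a block on the replicate number, 121 genes and 4 members were called. These 3 genes are also among those that the study selected from the same libraries, and the group was chosen with earlier results known. The present count is therefore not independent evidence of their direction, nor of a share above that of all genes.

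ATP6V1H encodes the H subunit, which bridges V1 and V0 and holds detached V1 inactive. The gene spans 54628103 to 54756118 of chromosome 8 (GRCh37, minus strand). It was measured at 27.3 and 29.2 CPM in EV, 29.0 and 29.9 CPM in sgZNF146 and 42.3 and 41.2 CPM in sgZNF507. Both sgZNF507 libraries lay above all 4 others, with a gap several times the spread within groups. The log2 fold change was 0.56 (SE 0.08, 95% interval 0.38 to 0.75, 1.48-fold) with an adjusted p of 0.0177 from edgeR. In the order of p-values across all genes, ATP6V1H was at place 21.

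ATP6V0D1 encodes the d subunit found in most cells, which sits on the c ring and connects it to the shaft. The gene spans 67471917 to 67515084 of chromosome 16 (GRCh37, minus strand). Its levels were 104 and 106 CPM in EV, 108 and 108 CPM in sgZNF146 and 140.0 and 135 CPM in sgZNF507. Replicates differed little in any group, and the sgZNF507 libraries again lay above all others. The log2 fold change was 0.39 (SE 0.06, 95% interval 0.26 to 0.52, 1.31-fold) with an adjusted p of 0.0228 from edgeR. Its paralogue ATP6V0D2 had a log2 fold change of -0.40 with a 95% interval from -1.15 to 0.35 on 14 to 37 counts, so that its direction was not detectable at this depth.

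TMEM199 encodes a membrane protein of the endoplasmic reticulum and the early secretory pathway that is needed for V0 assembly. The gene spans 26684665 to 26690705 of chromosome 17 (GRCh37, plus strand). Its levels were 25.3 and 27.5 CPM in EV, 27.1 and 28.0 CPM in sgZNF146 and 36.8 and 42.3 CPM in sgZNF507. The sgZNF507 libraries were above all others and differed from each other more than the replicates of the other groups did. The log2 fold change was 0.58 (SE 0.10, 95% interval 0.38 to 0.79, 1.5-fold) with an adjusted p of 0.0266 from edgeR. CCDC115, its partner in V0 assembly, was measured at 17.1 and 15.8 CPM in EV and 14.2 and 15.6 CPM in sgZNF507, and its log2 fold change of -0.14 (95% interval -0.38 to 0.09) did not pass the test. VMA21, which acts at the same stage, had 78.3 and 74.1 CPM in EV and 68.6 and 75.6 CPM in sgZNF507, with overlapping groups. The fold changes of these assembly factors were not tested against each other.

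ATP6V0C, the c subunit that makes up most of the rotor ring, was close to the threshold. The gene spans 2563953 to 2570219 of chromosome 16 (GRCh37, plus strand). Its levels were 21.1 and 20.5 CPM in EV, 20.7 and 24.0 CPM in sgZNF146 and 30.2 and 29.6 CPM in sgZNF507. As for the 3 called genes, both sgZNF507 libraries were above the other 4. The log2 fold change was 0.52 (SE 0.10, 95% interval 0.31 to 0.73, 1.44-fold), but the adjusted p of 0.0737 from edgeR did not pass. With DESeq2 on the 6 libraries the adjusted p was 0.0211, and on the 4 libraries compared it was 0.0377. When the fit was blocked on the replicate number, ATP6V0C was called as well (adjusted p = 4.92e-05 from edgeR). Of its exon bases, 60.9% are shared with a gene model on the same strand that had 0 to 2 counts, and its level may be understated by reads left unassigned.

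**Figure D3:**
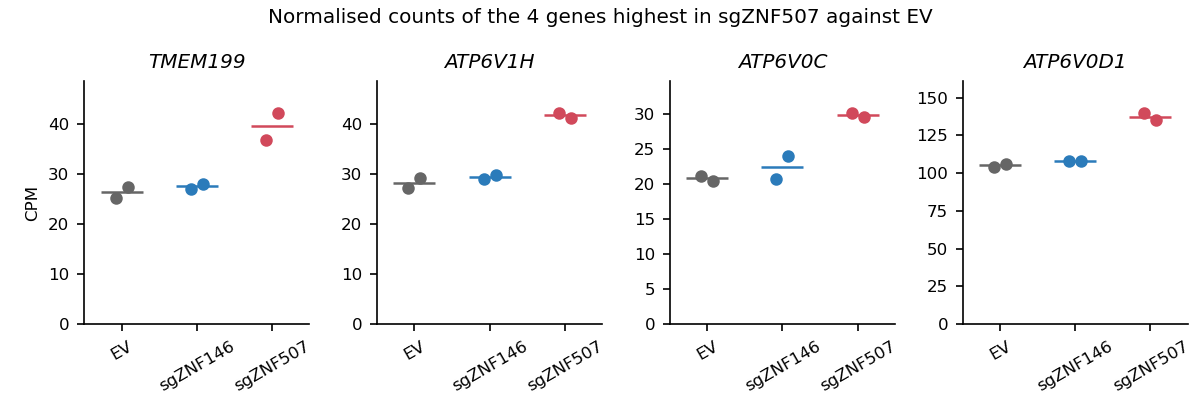
Normalised counts (CPM) of TMEM199, ATP6V1H, ATP6V0C and ATP6V0D1, the 4 members with the highest log2 fold change in sgZNF507 against EV. Points are libraries, lines are means of 2 libraries and each vertical axis starts at 0. In all 4 genes both sgZNF507 libraries lie above the EV and sgZNF146 libraries.

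The size of these differences held better than the calls. Over 14 alternative settings, the log2 fold change ranged from 0.52 to 0.61 for ATP6V1H, from 0.36 to 0.43 for ATP6V0D1, from 0.49 to 0.68 for TMEM199 and from 0.50 to 0.55 for ATP6V0C. The genes passed the threshold in 11, 8, 8 and 4 of these settings, in that order. Without EV replicate 1 no member was called, with adjusted p-values from edgeR of 0.266 for ATP6V1H, 0.302 for ATP6V0D1 and 0.389 for TMEM199. Without EV replicate 2 none was called either, with 0.122, 0.251 and 0.157. Without sgZNF146 replicate 1 or replicate 2, ATP6V1H was called (0.0382 and 0.0454) while ATP6V0D1 (0.0538 and 0.0557) and TMEM199 (0.0548 and 0.0653) were just above the threshold. Without sgZNF507 replicate 1 TMEM199 alone was called (0.0116), and without sgZNF507 replicate 2 ATP6V1H (0.0268) and ATP6V0D1 (0.0328) were called. In each of these fits a group was left with a single library, which was taken to vary as the other groups do.

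**Figure D4:**
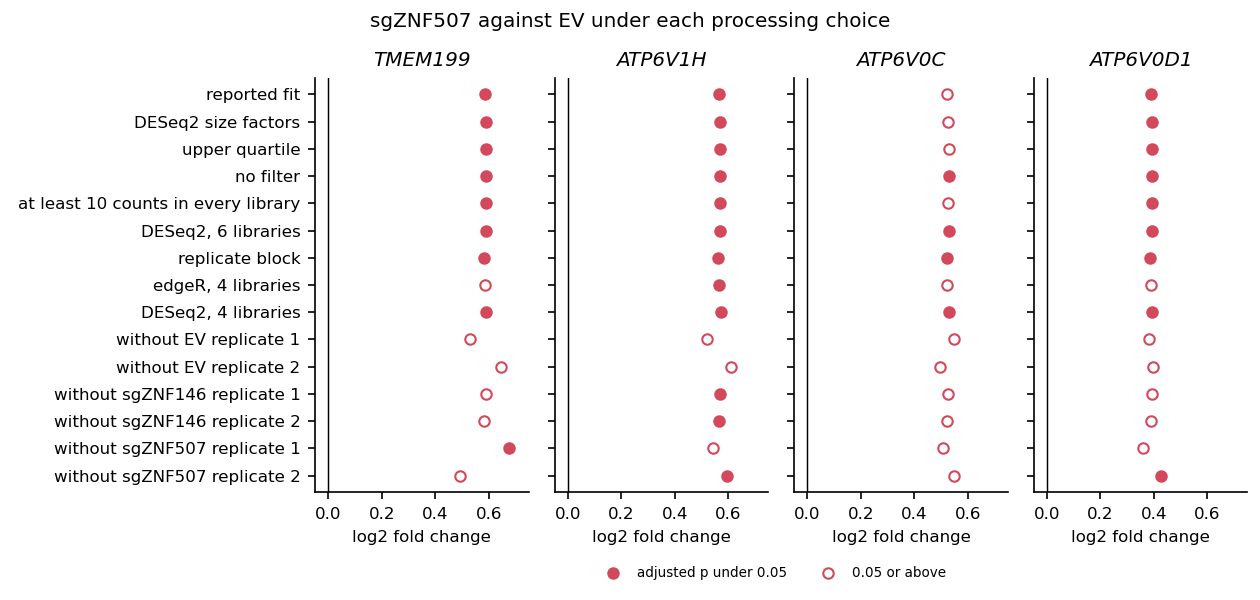
Log2 fold change in sgZNF507 against EV for the same 4 genes in the reported fit and in 14 alternatives. Filled points have an adjusted p under 0.05. The fold changes stay between 0.36 and 0.68 while the calls come and go, mostly when a library is left out.

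Apart from ATP6V1H, no V1 subunit passed the test between EV and sgZNF507. Of 12 tested V1 genes, 1 was called, and their median log2 fold change was 0.03, beside -0.003 for all genes tested. ATP6V1C1, the C subunit that is released when the pump disassembles, had 64.8 and 62.4 CPM in EV and 69.2 and 77.3 CPM in sgZNF507, a log2 fold change of 0.21 (adjusted p = 1.0, edgeR). The peripheral stalk subunit ATP6V1G1 had 51.7 and 53.9 CPM in EV and 58.5 and 58.7 CPM in sgZNF507, a log2 fold change of 0.15 (adjusted p = 1.0, edgeR). These groups did not overlap, but neither gene passed the test. For the catalytic pair, the log2 fold changes were 0.02 (95% interval -0.15 to 0.19) for ATP6V1A and -0.07 (95% interval -0.22 to 0.07) for ATP6V1B2, and for the shaft subunits 0.04 (-0.15 to 0.22) for ATP6V1D and -0.03 (-0.19 to 0.13) for ATP6V1F. ATP6V1E1 was at 0.10 (-0.07 to 0.26). The paralogues of low count, ATP6V1B1, ATP6V1C2, ATP6V1E2 and ATP6V1G2, had log2 fold changes from -0.25 for ATP6V1C2, the C subunit of kidney and lung epithelia, to 0.28 for ATP6V1B1, with intervals that all span 0.

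Among the 9 tested V0 subunits, 1 was called, and the median log2 fold change was 0.08. ATP6V0B, the second kind of ring subunit, had 106 and 112 CPM in EV and 129 and 119 CPM in sgZNF507, a log2 fold change of 0.18 (adjusted p = 1.0, edgeR). Its groups did not overlap, and the difference was smaller than those of ATP6V0C and ATP6V0D1. The a subunits had log2 fold changes of 0.08 (95% interval -0.04 to 0.21) for ATP6V0A1, 0.12 (-0.09 to 0.32) for ATP6V0A2 and -0.18 (-0.48 to 0.12) for TCIRG1. The e subunits were at 0.002 (-0.20 to 0.20) for ATP6V0E1 and -0.05 (-0.19 to 0.10) for ATP6V0E2.

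The accessory subunits ATP6AP1 and ATP6AP2, the latter also known as the (pro)renin receptor, had log2 fold changes of 0.08 (95% interval -0.05 to 0.22) and -0.06 (-0.24 to 0.13). Of the 5 accessory and assembly genes only TMEM199 was called, and their median was -0.06. None of the 4 rabconnectin-type genes was called, with log2 fold changes from -0.09 for DMXL1 to 0.13 for ROGDI and a median of -0.007. Their groups overlapped in each case, including ROGDI with 18.2 and 22.1 CPM in EV and 22.0 and 22.3 CPM in sgZNF507. Over all members, both sgZNF507 libraries lay above both EV libraries in 10 of 30 genes, beside 14.0% of all genes tested, and below them in 4 of 30, beside 15.3%. For the 21 members of at least 10 CPM that were not called, 95% intervals reached from -0.38 (CCDC115) to 0.73 (ATP6V0C). Of all 30 members, 6 had an unadjusted p under 0.05, beside 3.39% of all genes tested, and all 6 of these were higher in sgZNF507, beside 1.44%. Among these 6 are ATP6V1H, ATP6V0D1 and TMEM199, which the study had selected from the same libraries. The group was also chosen with earlier results known. Neither this count nor that of the groups that did not overlap is therefore independent evidence about the members.

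**Figure D5:**
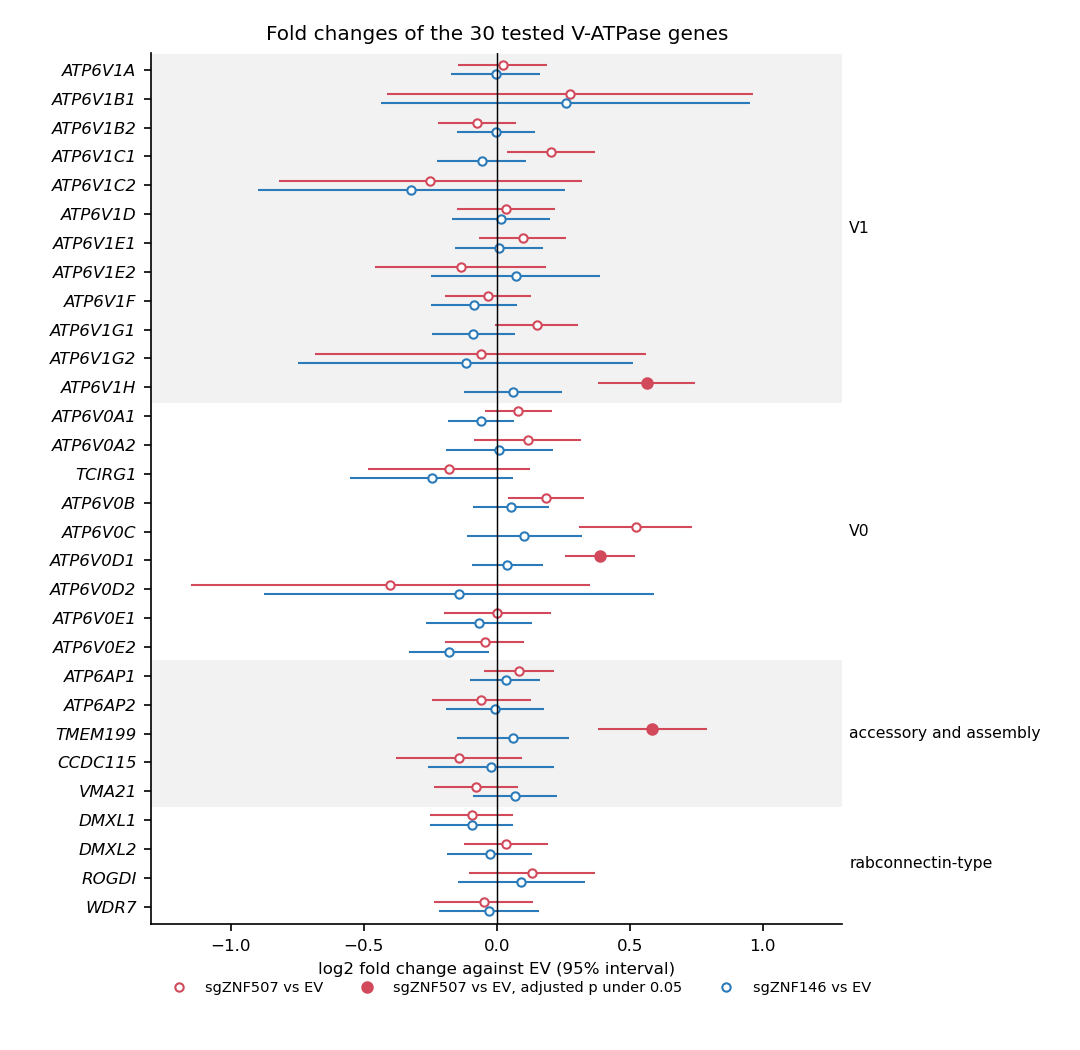
Log2 fold changes against EV with 95% intervals for the 30 tested V-ATPase genes, sgZNF507 in red and sgZNF146 in blue. Filled points passed an adjusted p of 0.05, which holds for ATP6V1H, ATP6V0D1 and TMEM199 in sgZNF507 and for none in sgZNF146.

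Promoter sequences were examined for the E-box of the MiT/TFE factors, since members of this family, TFEB and TFE3 among them, are known to bind palindromic TCACGTGA sites (the core of the CLEAR element) in promoters of lysosomal genes. The windows were RefSeq promoters on GRCh38.p14, from 250 bases before to 50 after each start, and 23 members had an entry. The search covered TCACGTGA and the shorter CACGTG, which TCACGTGA contains, and since both read the same on either strand a match counts once. TCACGTGA was found in 2 of 23 members (8.7%), ATP6V0D1 and ATP6V1G1, and in 321 of 27305 genes in the whole table (1.18%). CACGTG was found in 4 of 23 (17.4%), with ATP6V0B and ATP6V0E2 in addition, and in 2396 of 27305 genes (8.77%). ATP6V0D1 was called higher in sgZNF507, while ATP6V1G1 and ATP6V0B were higher without passing the test and ATP6V0E2 was at -0.05. ATP6V0C has no exact match in either of its 2 windows. Sites that differ from these letters were not searched for, so their share over members or over all genes is not known. The similar stretch tcatgtga, for example, stands in the ATP6V0C window printed below. It also stands in the window of VMA21, which was at -0.08 in sgZNF507 against EV. ATP6V1A, ATP6V1B2, ATP6V1C1, ATP6V1E2, ATP6V1H, ATP6V0D2, ATP6V0E1, TMEM199 and CCDC115 were not analysed here.

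The promoters of ATP6V0D1 and ATP6V1G1 are shown because they hold the full site, that of ATP6V0B because it holds 2 copies of the shorter motif, and that of ATP6V0C as a window with neither motif. They are written 5′ to 3′ on the strand of the gene, with CACGTG or TCACGTGA in capitals. They lie at chr16:67481108-67481407 (minus strand), chr9:114587519-114587818 (plus), chr1:43974710-43975009 (plus) and chr16:2513702-2514001 (plus) of GRCh38.p14. TCACGTGA begins 60 bases before the start in ATP6V0D1 and 59 bases before it in ATP6V1G1, and the copies of CACGTG in ATP6V0B begin 57 and 39 bases before it.
ATP6V0D1: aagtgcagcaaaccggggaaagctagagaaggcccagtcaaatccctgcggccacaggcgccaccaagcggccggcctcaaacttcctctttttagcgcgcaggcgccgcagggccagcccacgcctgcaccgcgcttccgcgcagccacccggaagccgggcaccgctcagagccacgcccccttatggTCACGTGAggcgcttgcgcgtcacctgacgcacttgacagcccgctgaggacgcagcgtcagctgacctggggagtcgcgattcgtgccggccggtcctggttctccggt
ATP6V1G1: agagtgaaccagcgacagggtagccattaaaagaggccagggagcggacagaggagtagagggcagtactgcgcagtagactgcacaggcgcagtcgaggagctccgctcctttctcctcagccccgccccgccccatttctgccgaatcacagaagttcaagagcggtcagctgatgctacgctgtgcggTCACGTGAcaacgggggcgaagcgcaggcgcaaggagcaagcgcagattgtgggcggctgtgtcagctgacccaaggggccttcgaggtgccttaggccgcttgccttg
ATP6V0B: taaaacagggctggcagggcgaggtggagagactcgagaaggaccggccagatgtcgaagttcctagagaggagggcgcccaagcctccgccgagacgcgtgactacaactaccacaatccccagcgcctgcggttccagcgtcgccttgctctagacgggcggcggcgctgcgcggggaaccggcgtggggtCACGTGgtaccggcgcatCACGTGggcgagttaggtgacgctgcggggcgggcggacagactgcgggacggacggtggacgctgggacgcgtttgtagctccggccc
ATP6V0C: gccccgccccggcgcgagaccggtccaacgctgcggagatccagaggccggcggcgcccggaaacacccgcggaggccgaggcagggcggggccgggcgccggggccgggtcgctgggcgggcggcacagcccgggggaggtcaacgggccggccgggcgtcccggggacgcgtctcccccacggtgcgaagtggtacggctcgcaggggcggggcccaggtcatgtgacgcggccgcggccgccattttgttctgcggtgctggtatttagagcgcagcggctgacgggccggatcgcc
In ATP6V0E2, not printed here, CACGTG begins 68 or 72 bases before the start, depending on the window, and a further window holds none. Positions over all genes with a motif were not examined, so these positions have no background to be read against. A match describes the letters and is no measure of binding, and no binding data were used here.

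The MiT/TFE genes themselves did not pass the test in sgZNF507 against EV. TFEB had 8.56 and 7.45 CPM in EV and 11.9 and 8.77 CPM in sgZNF507, a log2 fold change of 0.36 (adjusted p = 1.0, edgeR), TFE3 was at 0.05 and MITF at -0.003. TFEC, with 0 to 1 counts, was not tested.

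Other genes that act with the pump were read from fixed lists. Of 13 counter-ion and proton-leak transporters of endosomes and lysosomes, 1 was called in sgZNF507 against EV. This was CLCN7, the lysosomal chloride-proton exchanger, at 115 and 130.3 CPM in EV, 119 and 122 CPM in sgZNF146 and 174 and 162 CPM in sgZNF507 (log2 fold change 0.45, SE 0.07, adjusted p = 0.0237 from edgeR). It is also among the genes the study selected on these libraries, and it was called in 11 of 14 alternative settings. The call was lost without EV replicate 1 (adjusted p = 0.389), without sgZNF507 replicate 1 (adjusted p = 0.152) and with edgeR on the 4 libraries compared (adjusted p = 0.0573). The list had a median of 0.02 and ran from -0.47 for MCOLN1, the lysosomal cation channel, to 0.77 for SLC9A9, a Na+/H+ exchanger with 21 to 50 counts. Of the 10 Ragulator and Rag GTPase genes, which couple the lysosome to mTORC1, none was called and the median was 0.03. The farthest from 0 was RRAGB at -0.43 (adjusted p = 1.0, edgeR). Of 8 tested genes among 9 with TLDc domains or other links to the pump, none was called, and OXR1 was farthest from 0 at -0.08. The mitochondrial F-type ATP synthase, a rotary enzyme of the same kind that runs in reverse, served as a comparison. None of its 16 matched nuclear genes (of 18 listed) was called, and their log2 fold changes ran from -0.17 to 0.07 with a median of -0.02.

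The comparison of sgZNF146 with EV sets cells given target sequences for ZNF146 beside the same control. No V-ATPase gene was called, and the member with the smallest p-value, ATP6V0E2, had 161 and 178 CPM in EV and 156 and 144 CPM in sgZNF146 (log2 fold change -0.18, adjusted p = 1.0, edgeR). In the reported edgeR fit no tested gene was called in this comparison (0.0% of 22010), while 535 had an unadjusted p under 0.05. DESeq2 called 0 genes on 6 libraries and 3 on the 4 libraries compared, and edgeR called 19 without a filter, 33 with a replicate block, 3 on the 4 libraries and 0 to 3 without a library, none of them a member. Of the 30 members, 1 had an unadjusted p under 0.05, beside 2.43% of all genes tested. The median log2 fold change of the members was -0.005, beside -0.001 for all genes. Both sgZNF146 libraries lay above both EV libraries in 5 of 30 members, beside 14.0% of all genes, and below them in 6 of 30, beside 14.6%.

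The intervals limit how large a difference the sgZNF146 libraries can hold. For the 24 members of at least 10 CPM, the 95% intervals stayed between -0.33 and 0.33 on the log2 scale, or 0.796 to 1.26-fold. ATP6V1H was at 0.06 (95% interval -0.12 to 0.24), ATP6V0D1 at 0.04 (-0.09 to 0.17), TMEM199 at 0.06 (-0.15 to 0.27) and ATP6V0C at 0.10 (-0.11 to 0.32). Among the V1 genes the lowest and highest values belonged to ATP6V1C2 (-0.32) and ATP6V1B1 (0.26), both of low count, and among the V0 genes to TCIRG1 (-0.24) and ATP6V0C. VMA21 was highest of the accessory and assembly genes at 0.07 and CCDC115 lowest at -0.02, and the rabconnectin-type genes ran from -0.10 for DMXL1 to 0.09 for ROGDI. No gene of the transporter, Ragulator and Rag, TLDc, MiT/TFE or F-type lists was called in sgZNF146 against EV.

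The comparison of sgZNF507 with sgZNF146 sets both disruptions side by side, without EV. ATP6V1H and ATP6V0D1 were higher in sgZNF507, 2 of 30 members beside 0.173% of all genes. The log2 fold change was 0.50 for ATP6V1H (SE 0.08, 95% interval 0.32 to 0.68, adjusted p = 0.0346 from edgeR) and 0.35 for ATP6V0D1 (SE 0.06, 95% interval 0.22 to 0.48, adjusted p = 0.046 from edgeR). This comparison shares the sgZNF507 libraries with that against EV, and is no separate measurement of them. TMEM199 was at 0.52 (95% interval 0.32 to 0.73, adjusted p = 0.0611 from edgeR) and ATP6V0C at 0.42 (0.21 to 0.63, adjusted p = 0.294), and neither passed the test. TMEM199 was called by DESeq2, on 6 libraries (adjusted p = 0.00865) and on the 4 compared (adjusted p = 0.0154). With the replicate block 196 genes in place of 38 and 6 members were called, TMEM199, ATP6V0C, ATP6V1C1 and ATP6V1G1 in addition (adjusted p = 5.3e-06, 0.00192, 0.0135 and 0.0486 from edgeR). ATP6V1C1 at 0.26 and ATP6V1G1 at 0.24 had adjusted p-values of 0.721 and 0.806 in the reported fit. The lowest value among the V1 genes was that of ATP6V1E2 (-0.21), among the V0 genes that of ATP6V0D2 (-0.26), and among the accessory and assembly genes that of VMA21 (-0.15). The rabconnectin-type genes lay between -0.02 for WDR7 and 0.06 for DMXL2. The median over the members was 0.06, beside -0.004 for all genes. Without any of the 6 libraries in turn, neither ATP6V1H nor ATP6V0D1 passed, with adjusted p-values from 0.0542 (without EV replicate 1) to 0.678 (without sgZNF146 replicate 1) for ATP6V1H and from 0.0705 (without sgZNF507 replicate 2) to 0.671 (without sgZNF146 replicate 1) for ATP6V0D1.

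Reads of other genes that overlap or resemble the members were counted beside them. Exons of 8 members are overlapped on the same strand by another gene of the table, and those of 13 on the opposite strand. For TMEM199 the same-strand partners, a long noncoding RNA and MIR4723, had 0 counts in all libraries, and for ATP6V0C the partners had 0 to 2. Summed over the copies, the pseudogenes of ATP6V0C (3) had at most 1 count per library, those of ATP6V1E1 (3) at most 3, those of ATP6V0E1 (4) at most 13 and those of ATP6V1G1 (7) at most 19. Neighbours of ATP6V1H, ATP6V0D1, TMEM199 and ATP6V0C were the nearest tested protein-coding genes on either side that do not overlap them. They were chosen after the values of these members were seen, and lay as far as 463906 bp away (OPRK1, from ATP6V1H). Of these 8 genes, none was called in sgZNF507 against EV. POLDIP2, 115 bp from TMEM199, was at -0.07, AMDHD2, 139 bp from ATP6V0C, at 0.15 and SARM1, 673 bp from TMEM199 on the other side, at -0.20 (adjusted p = 1.0, edgeR).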

How the data were processed

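RNA was collected from HEK293 cells in biological duplicate for each of EV, sgZNF146 and sgZNF507, and sequenced as ribosome-depleted, strand-specific paired-end libraries. The authors clipped reads with the Fastx Toolkit, removed ribosomal reads with Bowtie, mapped to hg19 with TopHat2 under a first-strand setting and Ensembl models, and counted per gene with featureCounts, whose strand option is not given in the sources used here. The deposited values are raw counts per gene, neither normalized nor pooled. No molecular identifiers were used, so the limits given for genes at 0 counts cover counting error only.

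Counts of all 6 libraries were fitted in edgeR 4.0.16 (R 4.3.3) after filterByExpr, which left 22010 genes, with TMM factors, glmQLFit (common dispersion 0.0052) and glmQLFTest. Calls were made at 0.05 after Benjamini-Hochberg correction across every tested gene. They rest on the spread between 2 libraries per group pooled over groups, and standard errors were derived from the F statistic. The labels do not tie replicate numbers to a batch, but same-numbered libraries deviated together around the group means (r = 0.138 to 0.176 across genes), so values with the replicate number as a block are given where they change a call. An exact permutation of 2 libraries against 2 cannot reach 0.05. Alternatives were DESeq2 1.42.0, other scalings and filters, fits of only the 4 libraries of a comparison, a block on the replicate number, and omission of each library. For the target genes they were added after seeing the data. Gene models were GENCODE on GRCh37, matching 96.1% of identifiers, and a gene's length was the union of its exons. Promoters were RefSeq windows on GRCh38.p14. The steps were tested on simulated data.

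The members and lists were chosen with earlier results of these data known. Genes named in full are those past the threshold and the highest and lowest of each class in each comparison. In the other lists they are those past the threshold or else the farthest from 0. The authors' own fold changes were not used.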

Additional observations from a re-analysis of the deposited data

Results flagged for a closer look

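For 2 members, the effect of ZNF507 disruption differed from that of ZNF146 disruption, both against EV, by a test of the difference itself in the common fit. The difference was 0.504 on the log2 scale for ATP6V1H, the H subunit (adjusted p = 0.0346 from edgeR), where the log2 fold change against EV was 0.56 in sgZNF507 and 0.06 in sgZNF146. It was 0.348 for ATP6V0D1, the d subunit (adjusted p = 0.046 from the same test), where the values were 0.39 and 0.04. Both sgZNF507 libraries lay above both sgZNF146 libraries in each gene. The difference equals sgZNF507 against sgZNF146, since EV is common to both effects, and neither call held when any of the 6 libraries was left out.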

How the results depend on the processing

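The scaling by DESeq2's size factors or the upper quartile and the filter of at least 10 counts in every library kept 3 members called in sgZNF507 against EV, and no filter and DESeq2 on 6 or 4 libraries called 4, with ATP6V0C. edgeR on the 4 libraries compared called 1 (ATP6V1H), and leaving out a library gave 0 to 2. In sgZNF507 against sgZNF146 the 2 calls became 4 without a filter, 3 with DESeq2 on 6 or 4 libraries (with TMEM199), 0 with edgeR on 4 libraries and 0 to 1 without a library. With the scaling by the upper quartile the 2 were ATP6V1H and TMEM199 in place of ATP6V0D1. In sgZNF146 against EV no setting called a member. The median log2 fold change of the members ran, without a library, from -0.002 to 0.062 in sgZNF507 against EV, from -0.029 to 0.004 in sgZNF146 against EV and from 0.05 to 0.073 in sgZNF507 against sgZNF146. The counts over all genes moved more, from 40, 0 and 38 to 101, 19 and 112 without a filter, and from 12 to 44, 0 to 3 and 13 to 37 without a library, while edgeR on the 4 libraries called 28, 3 and 30. ZNF507 was called in all 14 alternatives in sgZNF507 against EV and in 12 of 14 against sgZNF146 (adjusted p = 0.0502 and 0.056 without sgZNF146 replicate 1 or 2), and ZNF146 was called in none. The cause of these changes was not tested, beyond the fewer libraries in the fits that leave some out.

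Replicate numbers are shared across groups, but the labels do not say that they mark a common batch. Around the group means, replicate 1 of different groups deviated together with r = 0.138 (EV and sgZNF146), 0.176 (EV and sgZNF507) and 0.145 (sgZNF146 and sgZNF507) across genes. When the fit was blocked on the replicate (a replicate block), 4 members were called in sgZNF507 against EV (with ATP6V0C, adjusted p = 4.92e-05 from edgeR), 0 in sgZNF146 against EV and 6 in sgZNF507 against sgZNF146 (with TMEM199, ATP6V0C, ATP6V1C1 and ATP6V1G1), and 121, 33 and 196 genes in all. It changed no other call among the members, CLCN7 and the target genes.

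Signs of small, uncalled log2 fold changes changed when a library was left out. The ranges in sgZNF507 against EV were ATP6V1E2 -0.311 to 0.073, ATP6V1B1 -0.125 to 0.688, ATP6V1A -0.054 to 0.1, ATP6V0E1 -0.086 to 0.099, ATP6V1G2 -0.315 to 0.196, ATP6V1F -0.112 to 0.054, ATP6V0E2 -0.114 to 0.026, ATP6AP2 -0.132 to 0.023, ATP6V0A2 -0.008 to 0.234, DMXL2 -0.039 to 0.111 and WDR7 -0.118 to 0.022. In sgZNF146 against EV they were ATP6V1E2 -0.108 to 0.279, ATP6V1B1 -0.045 to 0.671, CCDC115 -0.082 to 0.034, ATP6V1A -0.065 to 0.053, ATP6V0E1 -0.16 to 0.028, ATP6V1G2 -0.311 to 0.084, ATP6AP2 -0.086 to 0.072, ATP6V1B2 -0.058 to 0.046, ATP6V0D2 -0.351 to 0.115, ATP6V0A2 -0.085 to 0.099, DMXL2 -0.102 to 0.045, ATP6V0C -0.006 to 0.204, ROGDI -0.044 to 0.238, WDR7 -0.077 to 0.016 and ATP6V1E1 -0.065 to 0.077. In sgZNF507 against sgZNF146 they were ATP6V1C2 -0.159 to 0.348, ATP6V1B1 -0.384 to 0.297, ATP6V1A -0.05 to 0.104, DMXL1 -0.059 to 0.066, ATP6V1G2 -0.198 to 0.314, ATP6V1F -0.003 to 0.118, ATP6AP2 -0.102 to 0.005, ATP6V0D2 -0.771 to 0.073, ATP6V0A2 -0.018 to 0.224, ATP6V1D -0.013 to 0.059 and WDR7 -0.088 to 0.051. The sign also changed for ATP6V1B2 in sgZNF146 against EV (0.001, upper quartile) and for ATP6V1B1 in sgZNF507 against sgZNF146 (-0.012, replicate block).

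With the longest transcript as the length, the share of the leading paralogue in EV was 95.5% for ATP6V1C1, 62.1% for ATP6V0A1, 98.5% for ATP6V0D1, 65.3% for ATP6V0E2 and 56.0% for DMXL1. The shorter motif CACGTG was in 4 promoters in place of 2. Depth limits the paralogues of low count, whose intervals span more than those of the other members.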
